A study of Mus musculus with 8 samples.

Results

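Mitochondrial ribosomal protein genes encode the protein part of the ribosome that works inside mitochondria. The members described here are the 78 genes, of 17518 listed, whose symbol begins with Mrpl or Mrps followed by a number. By symbol, 49 were assigned to the large subunit (Mrpl) and 29 to the small subunit (Mrps). Large and small subunit below mean the symbol alone, which need not match the place of every protein. The cells were MH-S, an established line of alveolar macrophages from mouse lung, and the series concerns nanoparticles, named RCMNs, that respond to reactive oxygen species. Polyadenylated RNA was sequenced from 8 samples: 3 controls treated with phosphate-buffered saline (PBS), 2 samples treated with lipopolysaccharide (LPS, a bacterial surface molecule to which macrophages respond), and 3 samples treated with both LPS and RCMNs. Where both agents were used, LPS was at 100 ng/mL and RCMNs at 1 µg/mL, whereas the dose of LPS alone is not stated. The labels give no genotype or treatment time, nor whether the samples of a group came from different cultures. The p-values below therefore rest on a spread between samples that may be purely technical.

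The mitochondrial ribosome, or mitoribosome, translates the few messenger RNAs of mitochondrial DNA, all of which code for membrane subunits of the respiratory chain and of ATP synthase. Its RNAs are transcribed inside the organelle, whereas all of its proteins are made from nuclear genes in the cytosol and imported. The small subunit holds the decoding site, where messenger and transfer RNA meet, and the large subunit holds the site where peptide bonds form. Compared with its bacterial relatives, the mammalian particle has less RNA and many proteins that bacteria lack. In macrophages, activation by LPS is known to change how mitochondria are used.

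Total counts ran from 18.6 to 21.2 M per library, and 11911 genes had enough counts to be tested. All 78 members were tested, and none was at 0 in any library: single counts ran from 151 to 4363. Levels between samples are given as CPM, counts per M (mega) of TMM-scaled total, and levels between genes as FPKM, which also divides by gene length. In 2 of the 3 groups 1 library stood apart, replicate 1 in control and replicate 2 in LPS+RCMNs: the chi-square per degree of freedom over genes was 35.5 to 47.4 for pairs with either of them, against 1.93 and 2.82 for the remaining pairs of those groups and 12.5 for the LPS pair. Of the 12 macrophage markers examined, Marco, Siglecf and Pparg, 3 defining genes of alveolar macrophages, were at or below 1.32 CPM in every library, while the list summed to 5020 to 8080 CPM. Erythroid transcripts moved with the groups: the 9 markers summed to 1.17 to 20.9 CPM in control, 4360 to 5620 CPM in LPS and 0.861 to 34.4 CPM in LPS+RCMNs, with all 5 tested markers called higher in LPS versus control by edgeR. Alas2, the enzyme that starts haem synthesis in red cell precursors, was at 0.186 to 0.347 CPM in control, 30.0 and 33.3 CPM in LPS and at most 0.577 CPM in LPS+RCMNs, while Slc4a1, Klf1 and Hemgn were at or below 0.545 CPM in every library. Neutrophil markers summed to 5.15 to 5.33 CPM in LPS and to at most 0.709 CPM elsewhere, and lymphocyte, epithelial, and fibroblast and endothelial markers to at most 1.21, 0.484 and 3.63 CPM. The part of these transcripts in the results below was not tested. In bulk samples a change in the kinds of cells and a change in RNA per cell cannot be told apart.

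The members sit on many chromosomes and share no single locus, so their promoters are shown for the letters they have in common. RefSeq promoter windows of GRCm38.p6, from 250 bases before to 50 bases after each start, were matched for 69 members (75 windows, 9 members without an entry). Motifs of 3 transcription factor families known for genes of mitochondrial biogenesis were searched on both strands: GCGCATGCG for NRF1, CCGGAAG for the ETS family and AAGATGGCG for YY1. The ETS letters stood in 34.7% of member windows, in 17.7% of the windows of genes tested and in 8.86% of all windows of the table. For NRF1 the shares were 9.33%, 3.67% and 1.75%, and for YY1 10.7%, 3.07% and 1.40%. At least 1 of the 3 was found in 48.0% of member windows against 22.9% for genes tested and 11.4% in the whole table. A match describes the letters only. The 120 bases before the start are given below for Mrpl52, which had the largest rise, Mrpl17, the longest member, Mrpl3 and Mrps22, whose human counterparts are disease genes and Mrps11, chosen for its YY1 letters, so that each motif is seen once or more. Capitals mark the matched letters on either strand: ETS in Mrpl52, Mrpl3 and Mrps22, NRF1 in Mrpl17 and YY1 in Mrps11.
Mrpl52, chr14:54426789-54426908, plus strand: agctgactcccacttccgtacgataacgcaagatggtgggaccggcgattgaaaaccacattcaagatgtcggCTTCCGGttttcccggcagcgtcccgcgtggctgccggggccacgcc
Mrpl17, chr7:105811088-105811207, minus strand: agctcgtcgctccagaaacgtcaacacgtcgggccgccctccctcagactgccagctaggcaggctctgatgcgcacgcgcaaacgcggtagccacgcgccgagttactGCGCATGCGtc
Mrpl3, chr9:105053148-105053267, plus strand: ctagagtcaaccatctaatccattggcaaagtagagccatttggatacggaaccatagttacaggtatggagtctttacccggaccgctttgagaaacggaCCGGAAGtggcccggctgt
Mrps22, chr9:98601680-98601799, minus strand: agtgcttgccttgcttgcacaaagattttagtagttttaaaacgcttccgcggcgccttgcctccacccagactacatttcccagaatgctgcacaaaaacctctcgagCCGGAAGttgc
Mrps11, chr7:78783011-78783130, plus strand: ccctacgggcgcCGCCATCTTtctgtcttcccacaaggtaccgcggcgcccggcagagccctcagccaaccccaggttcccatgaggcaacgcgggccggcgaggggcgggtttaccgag

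Measured per length, Mrpl30, Mrpl33 and Mrpl12 were the most abundant members, with a mean over the 8 libraries of 167, 144 and 126 FPKM. Mrpl41, Mrps25 and Mrpl57 were the least abundant at 9.47, 13.7 and 15.2 FPKM, and the median member stood at 45.1 FPKM. Members therefore spanned a wide range of transcript levels, although most of the proteins are known to occur as single copies in the particle. Mrpl12, which forms the flexible stalk that recruits translation factors, is the known exception. The members were short genes. Their median length, as implied by the deposited counts and FPKM, was 1011 bases (363 to 6663) against 2804 bases for all genes tested, and their coding sequences ran from 195 to 1326 bases in the GENCODE annotation.

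The comparison of LPS with control asks how the members' transcripts stood after exposure to LPS alone. Summed over the 78 members, the level was 3670, 3310 and 3360 CPM in the control libraries and 7890 and 7970 CPM in the LPS libraries. The LPS libraries were thus more than 2-fold above every control library and close to each other. As a share of all counts, which uses no scaling between libraries, the members took 0.382% ± 0.0297 (SD, n = 3) in control and 0.627% ± 0.0177 (SD, n = 2) in LPS. By edgeR's quasi-likelihood test with Benjamini-Hochberg adjustment over all genes tested, 77 of 78 members rose at an adjusted p below 0.05, where 31.4% of all genes tested were called higher and 32.1% lower. On the log2 scale the median change was 1.30 for the large subunit, of which 48 of 49 rose, and 1.24 for the small subunit, of which 29 of 29 rose. Over all members the median log2 fold change was 1.27 (0.22 to 2.58), against -0.04 over all genes tested. In all 78 members both LPS libraries lay above the 3 control libraries, an arrangement found for 37.5% of all genes tested. No member was called lower by edgeR, with 0 lower at an unadjusted p below 0.05, 0 by DESeq2 and 1 by limma on log2 FPKM. Limma called fewer members higher than edgeR, 65 of 78 with either pseudocount (1 or 0.1). The share of all genes called by limma is not given.

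**Figure D1:**
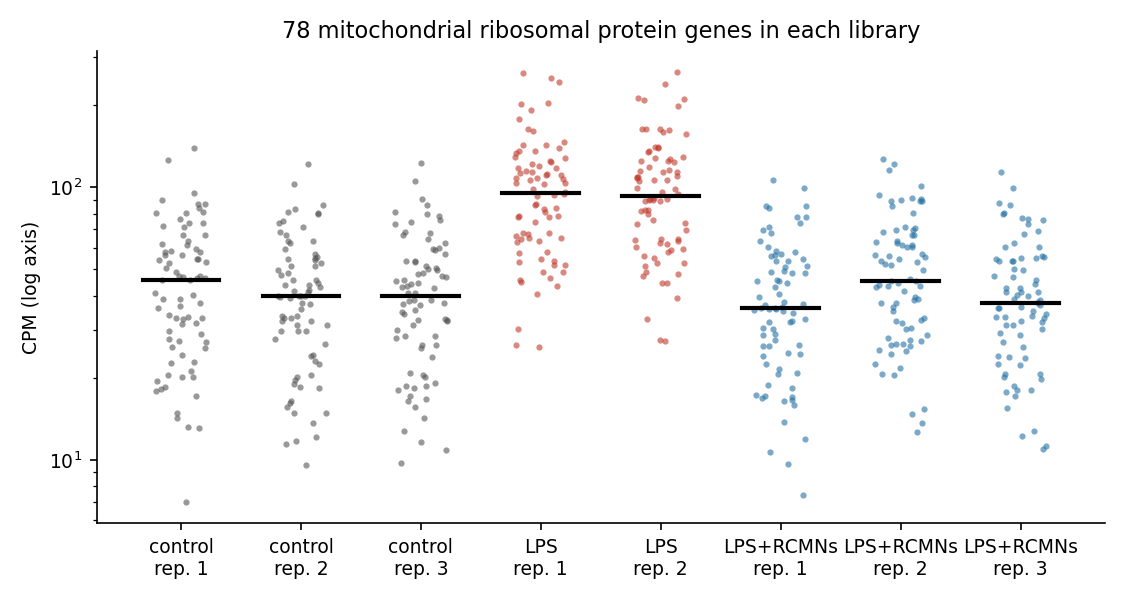
Levels of the 78 members in each library, in CPM on a log axis; each point is 1 gene and the black bar the median. The medians were 39.8 to 45.7 CPM in control, 92.9 and 95.1 CPM in LPS and 35.9 to 45.1 CPM in LPS+RCMNs.

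Among the large-subunit genes the biggest rises were those of Mrpl52, Mrpl54 and Mrpl20. Mrpl52, a protein that bacterial ribosomes lack, had 7.02, 9.54 and 9.71 CPM in control and 48.7 and 55.9 CPM in LPS. Its log2 fold change of 2.58 (SE 0.15, adjusted p = 2.02e-06 by edgeR) corresponds to 5.98-fold, the largest among the members. Mrpl54, likewise specific to mitochondria, had 13.1, 13.7 and 14.2 CPM in control and 64.4 and 54.8 CPM in LPS, 4.36-fold. Mrpl20, the counterpart of a bacterial protein needed early in assembly of the large subunit, had 26.0, 24.0 and 28.5 CPM in control and 106.0 CPM in both LPS libraries, 4.05-fold. These 3 genes separated the groups by several times the spread within them.

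Members near the working centres of the ribosome are given next. Mrpl12 had 86.4, 81.3 and 78.7 CPM in control and 244 and 210 CPM in LPS (log2 fold change 1.47, SE 0.14). Mrpl11, which anchors the stalk, had 45.6, 42.1 and 43.4 CPM in control and 125 and 128 CPM in LPS (1.53, SE 0.12). Mrpl3, next to the peptidyl transferase centre, had 126, 122 and 123 CPM in control and 251 and 238 CPM in LPS (0.99, SE 0.10). For Mrpl12, Mrpl11 and Mrpl3 both LPS libraries lay far above all control libraries, beyond the spread within either group. Mrps12, at the decoding site of the small subunit, changed by 1.28 (SE 0.13), Mrps15 by 1.39 (SE 0.11), Mrps16 by 1.45 (SE 0.15), Mrps22 by 1.32 (SE 0.13) and Mrps34 by 1.12 (SE 0.15), all called higher. With the length and level surface removed, only Mrps22 of these was called (0.40, adjusted p = 0.012 by edgeR). MRPS16, MRPS22 and MRPS34 are known in people as genes whose loss causes inherited defects of mitochondrial translation. Mrps28, another of these disease genes, had the largest rise of the small subunit, from 13.2, 12.1 and 11.6 CPM to 49.0 and 48.2 CPM (1.98, SE 0.24). At the other end of the small subunit stood Mrps27, an RNA-binding protein of the pentatricopeptide repeat family, with 50.7, 40.0 and 37.2 CPM in control and 65.2 and 59.0 CPM in LPS (0.54, SE 0.17, adjusted p = 0.020 by edgeR). The call of Mrps27 was lost without LPS replicate 1 (0.51, adjusted p = 0.11), with the block (0.46, adjusted p = 0.059), with the length and level surface removed (0.08, adjusted p = 0.69) and by limma on log2(FPKM + 1) (0.06, adjusted p = 0.78).

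Mrpl58, Mrpl44 and Mrps36, members with a role beyond ribosome structure, were also called higher. Mrpl58, an enzyme of the large subunit that frees stalled ribosomes, changed by 1.55 (SE 0.17). Mrpl44, which carries a fold related to ribonuclease III, changed by 0.78 (SE 0.16). Mrps36 bears a ribosomal name but is now known as a subunit of the 2-oxoglutarate dehydrogenase complex, and changed by 1.03 (SE 0.14). Mrpl36 and Mrpl24, counterparts of bacterial large-subunit proteins, changed by 1.01 (SE 0.10) and 0.80 (SE 0.08) and were called higher too. With the length and level surface removed, Mrpl58 (0.33, adjusted p = 0.081 by edgeR), Mrpl44, Mrps36 and Mrpl36 were not called. Mrpl24 was then called lower (-0.34, adjusted p = 0.011 by edgeR). The highest members by FPKM other than Mrpl12, Mrpl30 and Mrpl33, both rose by 1.61 (SE 0.10 and 0.12), and Mrps21, among the shortest, by 1.41 (SE 0.12). With the length and level surface removed none of these 3 was called, at 0.20 (adjusted p = 0.086) for Mrpl30, -0.05 for Mrpl33 and -0.22 for Mrps21. Mrpl50, chosen after its values were seen as the member that was not called, had 33.4, 37.3 and 38.5 CPM in control and 40.6 and 44.4 CPM in LPS. Its log2 fold change was 0.22 (SE 0.10, adjusted p = 0.082 by edgeR). On the FPKM scale, which lacks the scaling between libraries, Mrpl50 stood lower in LPS (15.4 and 17.3 FPKM) than in control (18.4 to 20.6 FPKM), and limma on log2(FPKM + 1) called it lower at -0.25 (adjusted p = 0.037), while edgeR with the length and level surface or the length trend removed gave -0.07 and -0.04 (adjusted p = 0.63 and 0.79). The direction of Mrpl50 thus differed between fits. Without LPS+RCMNs replicate 2, which enters through the shared estimate of spread and scaling, edgeR called Mrpl50 higher (0.27, adjusted p = 0.031).

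**Figure D2:**
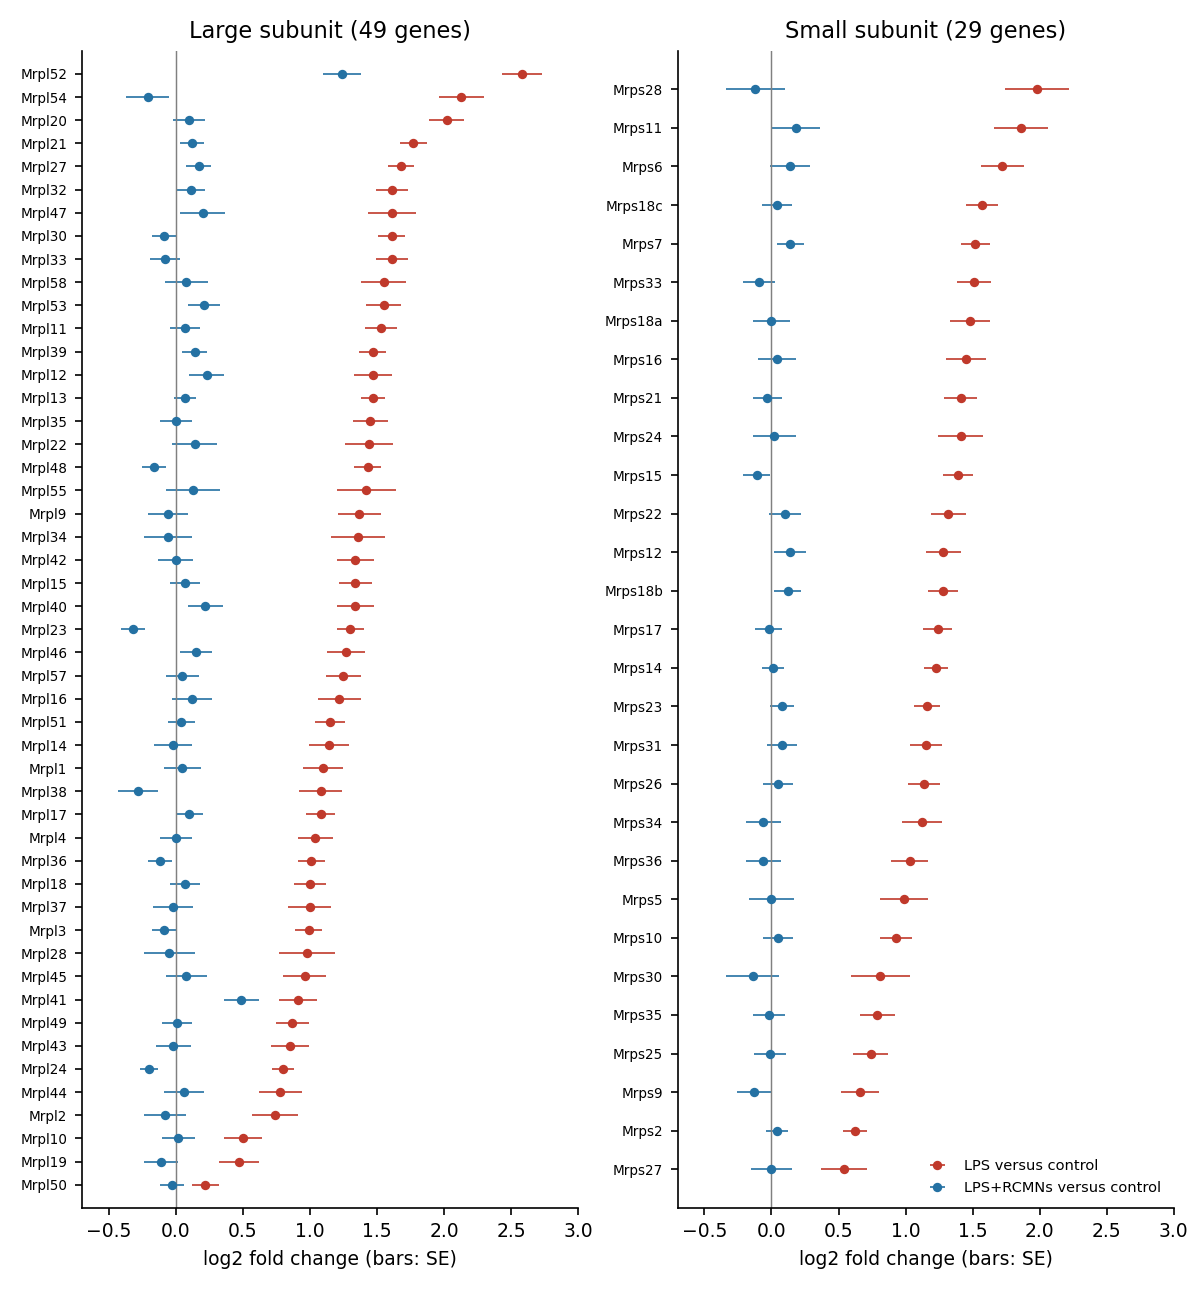
Log2 fold change of each member in LPS versus control (red) and in LPS+RCMNs versus control (blue), with bars of 1 SE, ordered by the former within each subunit. The red points run from 0.22 for Mrpl50 to 2.58 for Mrpl52, while the blue points lie near 0 except for Mrpl52 at 1.24 and Mrpl41 at 0.49.

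Gene length moved with these results. Across the 78 members, the LPS versus control log2 fold change had a Pearson's r of -0.53 and a Spearman's rho of -0.56 with the log2 of implied length, and -0.40 by both measures with coding length. Across 11805 genes tested with a length the values were -0.51 and -0.60. Genes of 1 library share its depth and composition and are not independent replicates, so these are descriptions. A band of 1474 other genes of like length (617 to 2316 bases) and like level (22.3 to 94.1 CPM) held 68.8% called higher and 5.90% called lower, with a median of 0.60. The members' median of 1.27 lay above that of the band, and the band's lay above that of all genes tested. The band was not matched to the members within its range of lengths. With the other genes tested cut into 20 bins by length, the bin with a median of 1003 bases had a median change of 0.96. That bin is the nearest to the members' median length of 1011 bases.

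Split by length into 3 groups of 26, the members and other genes differed least where genes were short. Members up to 865 bases had a median of 1.51, against 1.43 for 585 other genes in the same range. From there to 1375 bases the medians were 1.23 for members and 0.86 for 1137 other genes. In the longest group they were 0.99 for members and -0.13 for 9071 other genes, and for the 11 members over 2000 bases 0.96 against -0.26 for 7249 other genes. The longest group was not matched within its range: 11 of its 26 members but 7249 of its 9071 other genes exceeded 2000 bases. Nearer to most of these members, other genes in length bins with medians of 1485, 1690 and 1883 bases had median changes of 0.62, 0.42 and 0.34. The short members therefore stood where other short genes stood, and most long members stood above other genes near their length. Compared with the other genes in their own one of 20 length bins, 62 of 78 members lay above the bin's median, 31 above its upper quartile and 0 below its lower quartile.

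**Figure D3:**
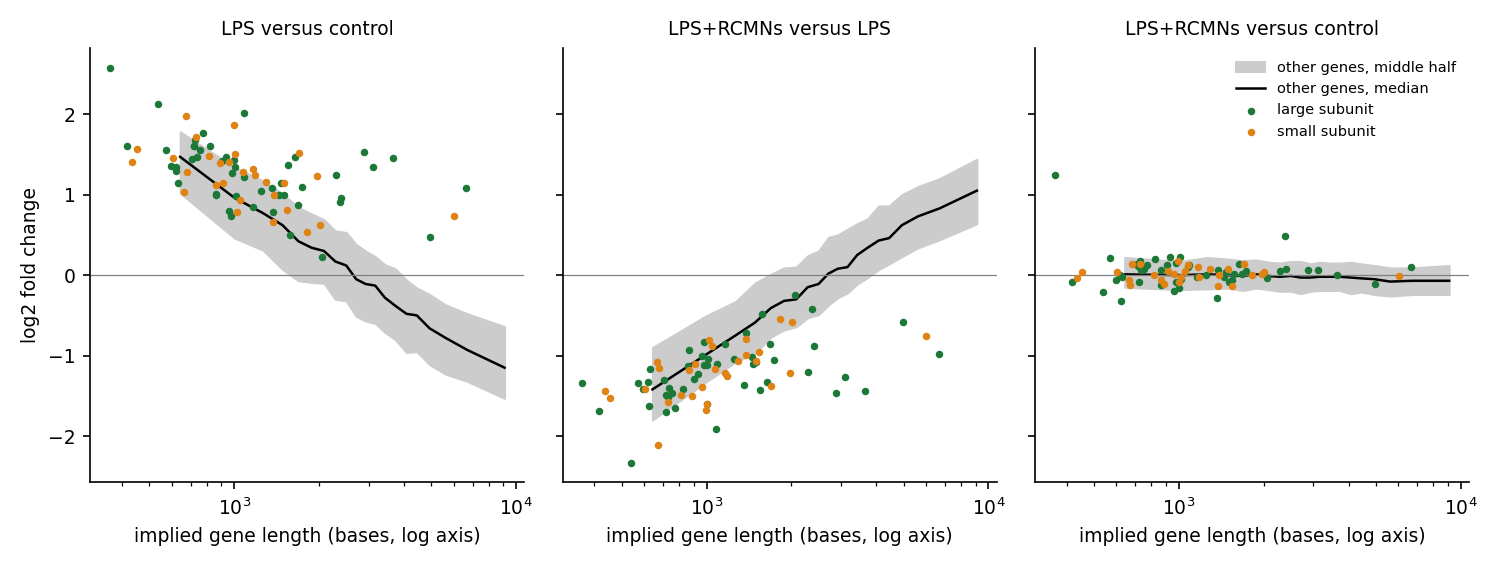
Log2 fold change against implied gene length (log axis) in the 3 comparisons. Points are members (green: large subunit, orange: small subunit); the black line and grey band are the median and quartiles of the other genes tested in 20 length bins. In LPS versus control the line falls with length and most long members lie above it. In LPS+RCMNs versus control the line and nearly all members lie near 0.

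The length of the long members lay outside the coding part: the 11 members over 2000 bases had coding sequences of only 306 to 918 bases. Mrpl17, the longest at 6663 bases with a coding length of 528, had 71.2, 80.1 and 90.7 CPM in control and 178 and 163 CPM in LPS. That gave a log2 fold change of 1.08 (SE 0.11). The groups did not overlap, and the median of the 586 other genes in the same length bin was -0.93. Mrps25, at 6027 bases, changed by 0.74 (SE 0.13), and Mrpl19, at 4967 bases, by 0.47 (SE 0.15, adjusted p = 0.021 by edgeR), the latter with a value of -0.01 by limma on log2 FPKM and with its call lost without LPS replicate 1 (0.47, adjusted p = 0.090) or LPS replicate 2 (0.55, adjusted p = 0.052). Both share exon bases with a gene on the opposite strand: 3533 bases of Mrps25 with Nr2c2 (-2.18 in LPS versus control) and 1962 bases of Mrpl19 with Gcfc2 (-0.61). Whether reads were counted by strand is not stated, so these 2 values are uncertain. In all, 22 members share exon bases with an opposite-strand gene in GENCODE, including Mrpl24 with Rrnad1 (594 bases), Mrps27 with 6430562O15Rik (417 bases) and Mrpl12 with Gm16755 (200 bases).

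With a smooth surface of each library on gene length and level removed before the same edgeR test, fewer members were called. In LPS versus control 33 of 78 were called higher and 1 lower, Mrpl24 at -0.34 (SE 0.08, adjusted p = 0.011), where 21.7% of all genes tested were called higher and 21.3% lower. The median of the members was 0.24, against -0.01 for all genes tested and 0.02 for the band of like length and level, in which 22.5% were called higher and 20.6% lower. From the shortest to the longest of the 3 groups the members' medians were 0.12, 0.24 and 0.59, with 8, 8 and 17 of 26 called higher. Of the 11 members over 2000 bases 9 were called higher, with a median of 1.10 against -0.02 for other genes of that length, and Mrpl17 had the largest value at 1.95 (SE 0.10). The 9 include Mrps25 (1.55, SE 0.14) and Mrpl19 (1.01, SE 0.16), whose values are uncertain because of the shared exon bases given above. Mrpl52 (0.90, SE 0.15), Mrpl20 (1.05, SE 0.11), Mrpl54 (0.70, SE 0.15), Mrps28 (0.75, SE 0.20), Mrpl11 (1.54, SE 0.11) and Mrps22 (0.40, SE 0.10) were called higher in this fit as well. Mrpl12 (0.24, SE 0.11), Mrpl3 (0.15, SE 0.07), Mrps12 (0.01, SE 0.11), Mrps34 (-0.05, SE 0.12), Mrpl44 (-0.02, SE 0.13), Mrpl23 (-0.09, SE 0.11) and Mrpl18 (-0.26, SE 0.09, adjusted p = 0.051) were not. Neither were Mrpl58 (0.33, SE 0.14), Mrps15 (0.22, SE 0.09), Mrps16 (0.09, SE 0.12), Mrpl36 (-0.18, SE 0.09) and Mrps36 (-0.21, SE 0.12).

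LPS+RCMNs was next compared with LPS, which asks how cells that also received the nanoparticles differed from cells given LPS alone. This comparison and the previous one share the LPS libraries, so opposite values follow in part from the shared samples and are not independent evidence. The summed level was 3190, 4000 and 3300 CPM in LPS+RCMNs, below both LPS libraries, or 0.369% ± 0.0481 (SD, n = 3) of all counts. By edgeR 77 of 78 members fell, where 29.5% of all genes tested were called lower and 29.8% higher, and Mrpl50 was again the member not called (-0.25, SE 0.10, adjusted p = 0.061). Mrpl50 was called lower without control replicate 1 (-0.27, adjusted p = 0.018) or LPS+RCMNs replicate 2 (-0.29, adjusted p = 0.039). The count of members called higher was 0 by edgeR, DESeq2 and limma on log2 FPKM, and 0 at an unadjusted p below 0.05. Limma called 66 members lower on log2(FPKM + 1) and 67 on log2(FPKM + 0.1), again without a share of all genes. The median log2 fold change was -1.21 (-2.33 to -0.25), against 0.03 for all genes tested and -0.58 for the band of like length and level, in which 67.2% were called lower and 5.36% higher. Other genes in the length bin with a median of 1003 bases had a median change of -0.98. All 78 members had the 3 LPS+RCMNs libraries below both LPS libraries, which held for 36.9% of all genes tested.

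Mrpl54, Mrps28, Mrpl20 and Mrpl30 fell most. Mrpl54 had 9.62, 14.7 and 11.2 CPM in LPS+RCMNs against 64.4 and 54.8 CPM in LPS (-2.33, SE 0.17). Mrps28 had 7.41, 15.4 and 11.0 CPM against 49.0 and 48.2 CPM (-2.11, SE 0.24). The LPS+RCMNs libraries were all far below the LPS libraries, with replicate 2 the highest of the 3 in both genes. Mrpl20 differed by -1.91 (SE 0.13), Mrpl30 by -1.70 (SE 0.10), Mrpl12 by -1.23 (SE 0.14) and Mrpl11 by -1.47 (SE 0.12). Mrpl41, a mitochondria-specific protein and the least abundant member per length, had 20.7, 27.4 and 22.3 CPM against 30.2 and 32.8 CPM, one of the smallest called differences (-0.42, SE 0.14, adjusted p = 0.029 by edgeR). That call was lost without LPS replicate 1 (-0.50), LPS replicate 2 (-0.40), LPS+RCMNs replicate 1 (-0.34) or LPS+RCMNs replicate 3 (-0.41), with adjusted p of 0.065 to 0.13. It was also lost with the surface removed (-0.35, adjusted p = 0.062), with the replicate number as a block (-0.40, adjusted p = 0.082) and by limma on log2(FPKM + 1), where the value was -0.01 (adjusted p = 0.94). The call of Mrps27 (-0.54, SE 0.17, adjusted p = 0.022 by edgeR) was lost without the same libraries, at -0.48, -0.64, -0.46 and -0.49 with adjusted p of 0.052 to 0.13, with the block (-0.46, adjusted p = 0.068), with the surface removed (-0.09, adjusted p = 0.67) and by limma (-0.12, adjusted p = 0.56).

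Length moved with this comparison too, in the opposite sense (Pearson's r 0.52 and Spearman's rho 0.57 across the 78 members, 0.52 and 0.61 across 11805 genes). From the shortest to the longest of the 3 groups the medians were -1.43, -1.14 and -1.0 for members against -1.41, -0.84 and 0.11 for other genes in the same ranges. In the longest range the other genes were again mostly longer than the members. Other genes in length bins with medians of 1485, 1690 and 1883 bases had median changes of -0.59, -0.41 and -0.32. With the surface on length and level removed, 30 members were called lower and 1 higher by edgeR, where 19.1% of all genes tested were called lower and 19.3% higher, with a median of -0.22 for members. The member called higher was Mrpl18 (0.30, SE 0.09, adjusted p = 0.034), named after its value was seen. Mrpl52 turned from -1.34 (SE 0.15) to 0.31 (SE 0.15, adjusted p = 0.12), so the size and direction of its difference between these groups depend on how length is treated.

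The last comparison, LPS+RCMNs with control, asks whether the members stood at control levels in cells given both agents. The summed level of 3500 ± 442 CPM (SD, n = 3) in LPS+RCMNs overlapped with the 3450 ± 196 CPM (SD, n = 3) of control. The median log2 fold change of the members was 0.03 (-0.32 to 1.24), against -0.02 for all genes tested, with 47 members above 0 and 31 below. By edgeR 1 member was called higher and 0 lower, where 4.33% of all genes tested were called higher and 3.23% lower. At an unadjusted p below 0.05 there were 2 higher and 2 lower, and by adjusted p DESeq2 gave 2 and 1 and limma on log2 FPKM 1 and 2. Groups did not overlap for 3 members above control and 2 below it, arrangements found for 14.1% and 15.7% of all genes tested. Length had little relation to these values (Pearson's r -0.11, Spearman's rho 0.02, n = 78). At this depth the test recovered 71.6% of simulated 2-fold changes and 25.4% of simulated 1.5-fold changes in this comparison, in genes drawn at random from all tested. Smaller differences would thus often not be called.

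The member called higher was Mrpl52, with 21.6, 20.5 and 19.8 CPM in LPS+RCMNs against 7.02, 9.54 and 9.71 CPM in control. Its log2 fold change was 1.24 (SE 0.14, adjusted p = 0.0015 by edgeR), or 2.36-fold. Per length it had at most 29.4 FPKM in control, 62.6, 59.9 and 57.3 FPKM in LPS+RCMNs and 105 and 124 FPKM in LPS. On the CPM and FPKM scales the 3 groups thus formed 3 separate levels, with LPS+RCMNs between the others. With the surface removed, Mrpl52 stood 0.90 above control in LPS and 1.21 above it in LPS+RCMNs, so the order of these 2 groups depends on how length is treated. Mrpl52 (gene ID 68836) lies on chromosome 14 at 54426909 to 54429750 of GRCm38.p6, shares no exon bases with another annotated gene, and its implied length of 363 bases, the shortest of all members, equals its coding length. Its neighbours were not called: Slc7a7, an amino acid transporter gene, changed by 0.64 (adjusted p = 0.15 by edgeR), Oxa1l by -0.05, Lrp10 by 0.36 (adjusted p = 0.075 by edgeR), and Mmp14 was not tested. Among the alternatives run, the call of Mrpl52 held in every fit, with values of 1.13 to 1.34.

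Mrpl41 and Mrpl23 came next. Mrpl41 had 18.2, 15.6 and 16.4 CPM in control and 20.7, 27.4 and 22.3 CPM in LPS+RCMNs, with no overlap (0.49, SE 0.13, adjusted p = 0.056 by edgeR). Mrpl23, at the exit of the peptide tunnel and named after its value was seen, had 27.3, 27.8 and 31.1 CPM in control and 22.5, 22.5 and 24.1 CPM in LPS+RCMNs, also with no overlap (-0.32, SE 0.09, adjusted p = 0.075 by edgeR). Both missed the threshold and passed it in some alternatives: Mrpl41 with DESeq2 (adjusted p = 0.018), with the surface removed (adjusted p = 0.031) and without control replicate 1 (0.58, adjusted p = 0.036), and Mrpl23 with DESeq2 (adjusted p = 0.047) and limma (adjusted p = 0.025). With the surface removed 2 members were called higher and 0 lower by edgeR, where 4.53% of all genes tested were called higher and 2.91% lower. Mrpl12, for comparison, had 86.4, 81.3 and 78.7 CPM in control and 85.6, 116 and 87.6 CPM in LPS+RCMNs (0.23, SE 0.13, adjusted p = 0.32 by edgeR). Mrpl17, Mrpl20 and Mrps22 each differed by 0.10 and Mrpl3 by -0.09, with adjusted p of 0.57 to 0.67 by edgeR.

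**Figure D4:**
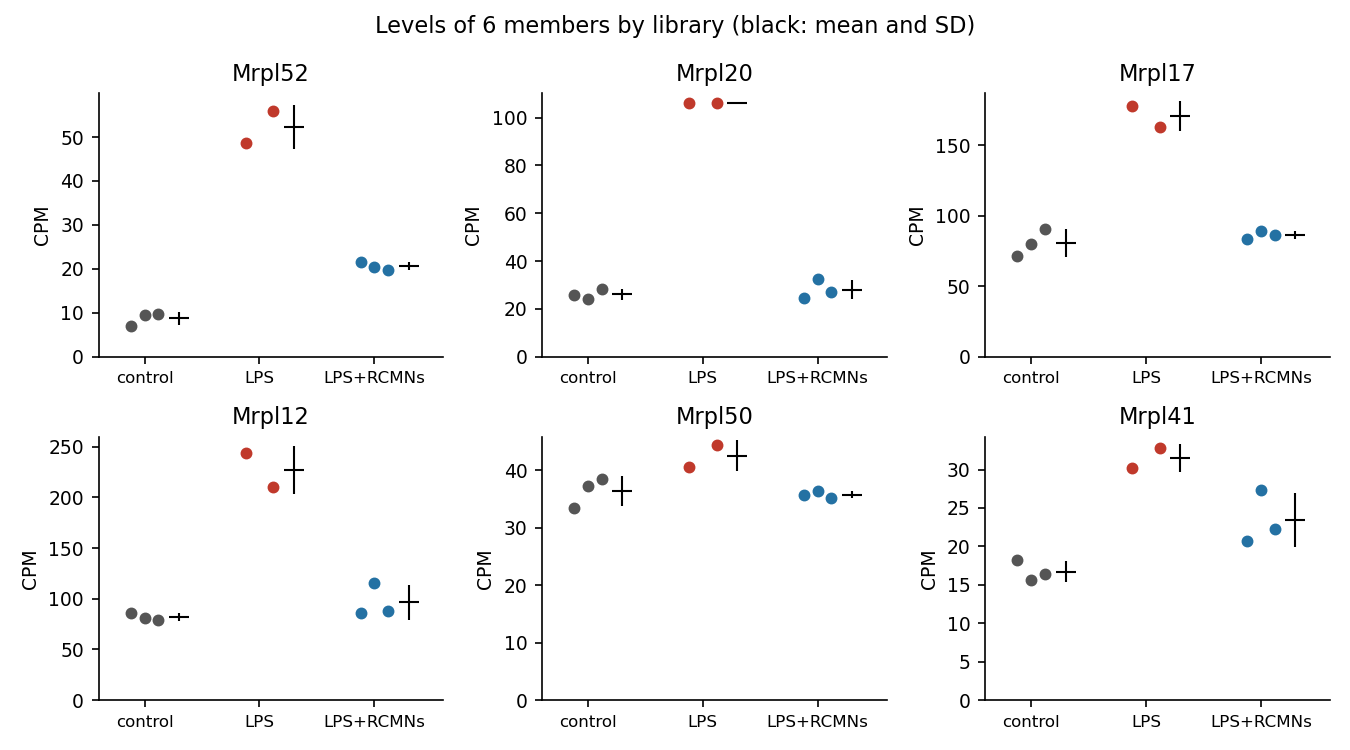
Levels of 6 members by library in CPM on axes from 0, with the mean and SD of each group in black. Mrpl52 forms 3 levels on this scale, Mrpl20, Mrpl17 and Mrpl12 are highest in LPS, Mrpl50 differs little between groups, and Mrpl41 in LPS+RCMNs lies between control and LPS.

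The libraries that stood apart touched this comparison. Control replicate 1 was the highest of its group for 53 of 78 members and LPS+RCMNs replicate 2 for 73 of 78. Without both of them, edgeR called 78 members higher in LPS versus control (38.6% of all genes tested higher, 36.3% lower), 78 lower in LPS+RCMNs versus LPS (37.1% lower, 36.7% higher), and 3 higher and 5 lower in LPS+RCMNs versus control (14.8% higher, 10.6% lower). Beside Mrpl52, the 7 members then called in the last comparison were Mrpl41 (0.45) and Mrpl45 (0.26), which were higher, and Mrpl54 (-0.39), Mrpl38 (-0.37), Mrpl23 (-0.31), Mrps33 (-0.21) and Mrpl24 (-0.20), which were lower. The share called, 3.85% of members higher and 6.41% lower, was below that of all genes tested in either direction.

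Other genes of mitochondrial translation are given next, as 5 lists beside the members. No difference between a list and the members was tested. In LPS versus control edgeR called 31.4% of all genes tested higher and 32.1% lower, the shares to set beside its counts per list. The FPKM used by limma carry no TMM scaling, and the share of all genes that limma called is not given. Its counts per list are therefore not set against a background. The first list holds 6 genes, called the other mitoribosome proteins below. Oxa1l among them is the insertase that receives new chains, not a part of the ribosome. Of the 6 genes, 5 were called higher in LPS versus control, with a median of 1.01: Chchd1 (1.64, SE 0.14), Gadd45gip1 (1.51, SE 0.16), Aurkaip1 (1.15, SE 0.11), Dap3 (0.86, SE 0.11) and Oxa1l (0.74, SE 0.16). Ptcd3, a small-subunit protein with pentatricopeptide repeats, had 177, 191 and 189 CPM in control and 195 and 215 CPM in LPS (0.15, SE 0.09, adjusted p = 0.20 by edgeR). Of 15 translation factors 10 were called higher and 1 lower by edgeR, with a median of 0.62 (5 higher and 4 lower by limma). Tufm, the elongation factor that delivers transfer RNA, changed by 1.31 (SE 0.19), its exchange factor Tsfm by 1.18 (SE 0.16) and the recycling factor Mrrf by 1.16 (SE 0.12). Slirp, which binds mitochondrial messenger RNA, changed by 1.79 (SE 0.11), whereas its partner Lrpprc fell by 0.43 (SE 0.08).

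Assembly and RNA-modifying factors showed smaller differences: of 27, 14 were called higher and 1 lower by edgeR, with a median of 0.42, whereas limma on log2 FPKM, which differs in test, unit and scaling, called 3 higher and 7 lower. The GTPase Mtg2 (1.08, SE 0.12) and the ribosomal RNA methyltransferase Tfb1m (1.07, SE 0.18) rose most, and the methyltransferase Trmt2b fell by 1.02 (SE 0.14). Of 17 mitochondrial aminoacyl-tRNA synthetases, the enzymes that charge transfer RNA, 3 were called higher and 3 lower by edgeR, with a median of -0.12 (1 higher and 10 lower by limma). Both edgeR counts lay below the shares over all genes tested, 31.4% higher and 32.1% lower. Yars2 changed by 1.24 (SE 0.14) and Pars2 by -1.05 (SE 0.19). Of 6 tested genes of mitochondrial transcription, none was called by edgeR, with 0 at an unadjusted p below 0.05, 0 by DESeq2, and 0 higher and 5 lower by limma: the polymerase Polrmt changed by -0.27 (SE 0.16), and the DNA-packaging factor Tfam by -0.04 (SE 0.09), with 79.2, 73.3 and 74.7 CPM in control and 74.7 and 72.8 CPM in LPS. The Tfam groups overlapped, unlike those of any member. Mterf2, the remaining gene of this list, was not tested, at 0.245 to 0.666 CPM.

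In LPS+RCMNs versus LPS, where 29.5% of all genes tested were called lower and 29.8% higher, edgeR called 5 of 6 other mitoribosome proteins lower and limma on log2(FPKM + 1) 4 lower and 1 higher. Of 15 translation factors edgeR called 9 lower and 1 higher, and limma 5 lower and 3 higher. Of 27 assembly factors edgeR called 11 lower and 1 higher, and limma 3 lower and 4 higher. Of 17 synthetases edgeR called 6 lower and 2 higher, and limma 1 lower and 5 higher. By edgeR 40.7% of the assembly list and 35.3% of the synthetases were thus called lower, and in both lists limma called more genes higher than lower. Of 6 transcription genes edgeR called none, with 0 at an unadjusted p below 0.05 and 0 by DESeq2, while limma called 4 higher. In LPS+RCMNs versus control none of the genes tested in these 5 lists was called by edgeR: 1 was higher and 5 lower at an unadjusted p below 0.05, DESeq2 called 1 lower, and limma called 2 lower at most. For scale, 78 of 78 tested cytosolic ribosomal protein genes were called higher in LPS versus control with a median of 1.75, and 72 of 74 oxidative phosphorylation subunits with a median of 1.56. With the surface on length and level removed these medians were 0.17 and 0.08, against 0.24 for the members. In that fit the median was 0.21 for the other mitoribosome proteins (3 of 6 called higher), 0.23 for the translation factors (7 of 15 higher, 1 lower), 0.07 for assembly (5 of 27 higher, 3 lower), 0.08 for the synthetases (4 of 17 higher, 3 lower) and -0.12 for transcription (1 of 6 higher, 1 lower). Of all genes tested, 21.7% were called higher and 21.3% lower there. Both shares of the assembly list lay below these, and those of the synthetases lay near them.

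**Figure D5:**
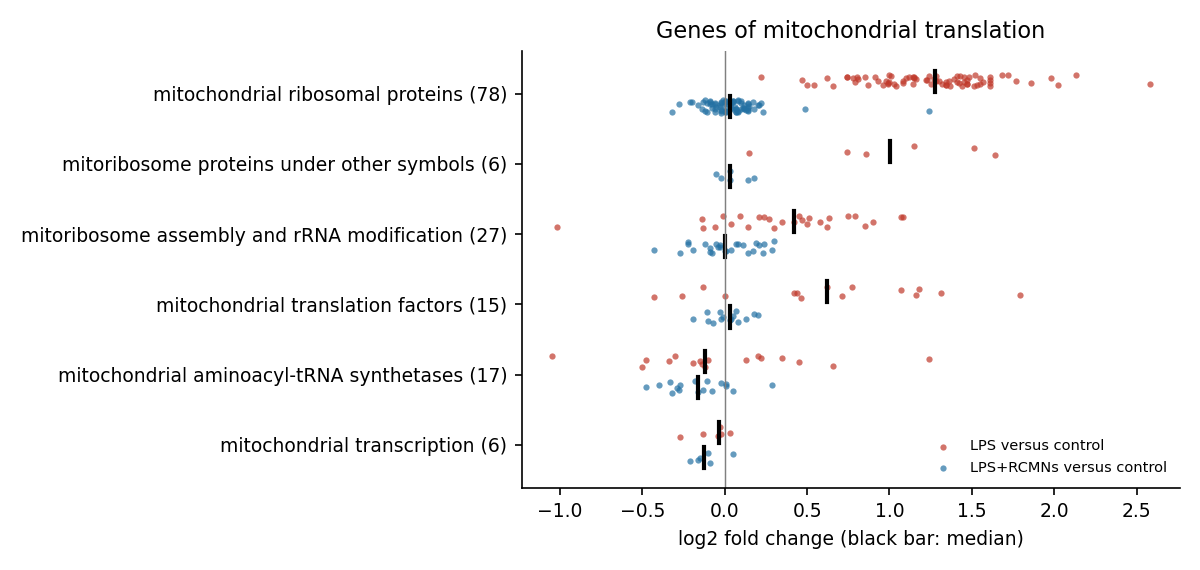
Log2 fold change in LPS versus control (red) and LPS+RCMNs versus control (blue) for the members and 5 lists of genes of mitochondrial translation, with the number tested; black bars are medians. The red medians run from 1.27 for the members to -0.12 for the aminoacyl-tRNA synthetases, and the blue medians lie between -0.16 and 0.03.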

How the data were processed

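Polyadenylated RNA of MH-S cells was measured in 8 samples. Per the labels' protocols, total RNA came from TRIzol, oligo(dT) beads selected messenger RNA, and a BGI kit was used for the libraries. Each gene has 2 values per library as deposited by the authors: an estimated count of reads (77.8% of those above 0 lay over 0.001 away from a whole number) and an FPKM. The submitters' processing notes name mm10, and the series' design text names FastQC for read quality. Which aligner, counter and annotation were used is not given in the sources used here. Library codes tied columns to samples, which left 4 columns without a sample, not used here.

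Counts were rounded, filtered with filterByExpr and scaled by TMM (factors 0.779 and 0.803 for LPS, 1.05 to 1.13 for the others). The test was edgeR's quasi-likelihood F-test (edgeR 4.0.16, limma 3.58.1, R 4.3.3) fitted to all groups at once, because LPS has only 2 libraries (common coefficient of variation 14.5%, 4.15 prior and 5 residual degrees of freedom). Calls use a Benjamini-Hochberg adjusted p below 0.05 over 11911 genes, and an SE is the log2 fold change over the square root of F. A count of 0 would allow up to 0.130 to 0.182 CPM (3 counts, counting error only). Length is that implied by counts and FPKM. For the length and level fit, a loess surface (span 0.4) of each library was removed as an offset. RefSeq tables of GRCm38.p6 matched 17468 of 17518 gene IDs, and coding lengths and exon overlaps come from GENCODE vM21. Tested on simulated data for LPS versus control (11911 genes), the procedure recovered 16.4%, 68.7% and 90.9% of 1.5-, 2- and 4-fold changes. Only 67, 67 and 66 genes, drawn at random, were changed by these folds, far fewer than were called in the data. The adjusted threshold was therefore harsher there. Genes tested also had a lower median level (30.4 CPM) than members (54.1 CPM), so these shares need not hold for the members.

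Alternatives were fitting each pair of groups alone, a replicate block, leaving out each library, no filter, a filter at FPKM 5 in 2 libraries, DESeq2 1.42.0, edgeR with median-ratio size factors, limma on log2(FPKM + 1) and log2(FPKM + 0.1), the length trend or the length and level surface removed, and both libraries that stood apart left out. The members, gene lists and tests were chosen with earlier results of these data known. Genes named are, per comparison, the 4 largest called rises and falls, the 3 highest and lowest by FPKM, the 3 longest and shortest, and 15 fixed members. Figures were drawn with matplotlib 3.10.9.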

Additional observations from a re-analysis of the deposited data

How the results depend on the processing

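In LPS versus control, members called higher numbered 73 to 78 and the median was 1.27 to 1.33 with each library left out, with 0 called lower throughout. In LPS+RCMNs versus LPS, members called lower numbered 73 to 78 and the median was -1.33 to -1.12, with 0 called higher. In LPS+RCMNs versus control, 1 to 2 members were called higher and 0 to 1 lower, and the median was -0.05 to 0.12. The 2 higher came without control replicate 1 (Mrpl41 added) and the 1 lower without LPS+RCMNs replicate 2 (Mrpl38).

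With the surface on length and level removed, LPS versus control gave 33 higher, 1 lower and a median of 0.24, and LPS+RCMNs versus LPS gave 30 lower, 1 higher and a median of -0.22. With the length trend alone removed these were 42, 1 and 0.35, and 32, 1 and -0.28. Shares of all genes called are given above only for the main fit, the surface fit and the fit without both libraries that stood apart. Counts from the other fits in this section have no such share beside them. By limma on log2(FPKM + 1) and log2(FPKM + 0.1) the medians were 0.80 and 0.81 in LPS versus control, with 1 member lower in both, and -0.79 and -0.81 in LPS+RCMNs versus LPS; these FPKM carry no TMM scaling. In LPS+RCMNs versus control, 2 members were called higher with the stricter filter, DESeq2, the surface or the length trend removed, and 3 with both libraries that stood apart left out. There, 1 was called lower with DESeq2, 2 with either limma fit and 5 with both libraries left out.

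Direction turned for members chosen by the rule for named genes as follows, and the cause was not tested. Mrpl50, Mrpl23 and Mrpl18, named later, also turned in LPS versus control with the surface removed (-0.07, -0.09 and -0.26). Mrpl50 turned in LPS+RCMNs versus LPS as well (0.05, 0.02 with the length trend removed, 0.16 by limma on log2(FPKM + 1)). The list is partial: members not covered by the rule, such as Mrpl2, Mrps35 and Mrpl10, turned too in LPS versus control with the surface removed. With the surface and then the length trend removed, LPS versus control gave -0.05 and -0.15 for Mrpl33, -0.22 and -0.32 for Mrps21, -0.21 and -0.32 for Mrps36, -0.18 and -0.11 for Mrpl36, and -0.34 and -0.21 for Mrpl24. The surface alone turned Mrps34 (-0.05) and Mrpl44 (-0.02), the length trend alone Mrps12 (-0.05), and both limma fits Mrpl19 (-0.01 and -0.01). In LPS+RCMNs versus LPS the same pair of fits gave 0.31 and 0.54 for Mrpl52, 0.18 and 0.29 for Mrps21, 0.11 and 0.17 for Mrps12, 0.14 and 0.26 for Mrps36, and 0.12 and 0.00 for Mrpl24. The surface alone turned Mrpl44 (0.05) and Mrpl36 (0.04), and the length trend alone Mrpl33 (0.07) and Mrps16 (0.01).

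Whether the replicate numbers pair the samples could not be decided. Deviations of same-numbered libraries correlated at -0.28, -0.34 and 0.20 for control and LPS+RCMNs. They correlated at 0.19 and 0.14 for control and LPS, and at -0.11 and -0.14 for LPS and LPS+RCMNs. Not every library correlated best with its own number. The highest value, 0.38, joined the libraries that stood apart, control replicate 1 and LPS+RCMNs replicate 2, which also weigh on the other deviations in their groups. With the replicate number as a block, 75 members were called higher in LPS versus control, 74 lower in LPS+RCMNs versus LPS and 1 higher in LPS+RCMNs versus control.

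Depth was no limit for any member, the lowest count being 151. The limits are the 2 LPS libraries, the dependence of all fold changes against LPS on gene length, and the erythroid transcripts of the same libraries, which cannot be told apart from the LPS group.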
